A study of Mus musculus with 3 samples.

Results

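The cells described here are lipocalin-secreting gland cells of the mouse vomeronasal organ, chosen by how much of their RNA came from 5 genes for secreted carrier proteins. A cell was a member when Lcn3, Lcn4, Lcn11, Obp2a and Obp2b together made up at least 2% of its unique molecular identifiers (UMIs, each tagging 1 captured transcript). By that rule, 663 of 13353 kept cells in 3 single-cell libraries were members: 239 of 4305 in the control at postnatal day 10 (P10), 79 of 3741 for the mutant of that age and 345 of 5307 for the mutant at 3 months. The 5 genes chose the cells, so their levels and everything set against cells outside the rule are descriptions without a test. Below, gland cell means a member of the rule, and at 3 months many members also held markers of immune cells.

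The series profiled whole vomeronasal organs of male mice on a mixed C57 BL/6J 129P2/OlaHsd background. The control was heterozygous for OMPCre, a Cre recombinase driven in neurons that express Omp, and both mutant libraries were double heterozygous for OMPCre and for R26AP2e, a transgene at the Rosa26 locus for the transcription factor AP-2ε (gene Tfap2e), so all 3 groups carried OMPCre. The mutant was sampled at P10 and at 3 months (P90 in its title), the control at P10 alone. Each group was 1 library, and the number of animals in a library is not given in the sources used here. No comparison between libraries therefore has a test. At P10 a difference of genotype cannot be told apart from one of library, the same holds for age when the mutants are compared, and every interval below is a 95% interval for counting error only.

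Vomeronasal glands are exocrine glands that empty into the lumen of the organ and keep it wet. Their acinar cells make large amounts of a few secreted proteins through the endoplasmic reticulum, among them lipocalins, small barrel-shaped proteins that carry hydrophobic ligands such as pheromones and odorants. Lcn3 and Lcn4 are the vomeronasal secretory lipocalins, Obp2a and Obp2b are odorant-binding proteins of the same superfamily, and Lcn11 is a further lipocalin. Wfdc18 is a secreted protein with a whey acidic protein domain, and Dmbt1 is a large mucin-like glycoprotein of glands that binds bacteria.

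Obp2a (ENSMUSG00000062061), Obp2b (ENSMUSG00000079539), Lcn3 (ENSMUSG00000026936) and Lcn11 (ENSMUSG00000069080) lie side by side on the plus strand of chromosome 2, within 80.2 kb from 25700043 to 25780279 (GRCm38). Lcn4 (ENSMUSG00000026919) lies 887 kb away on the minus strand of the same chromosome, from 26667674 to 26671282. Obp1a and Obp1b, odorant-binding genes on chromosome X that the rule did not use and that some of the gland cells expressed, start at 78091374 on the minus strand and 78186777 on the plus strand. The 100 bases upstream of each gene are shown because the levels of these 7 genes carry the results below. The sequences are from RefSeq on GRCm38.p6, written 5′ to 3′ on the strand of the gene, and the capitals mark the letters TATAAA, the core of a TATA box. Windows end before the RefSeq start, except those of Obp2a and Obp1b, which end 31 bases earlier, before the start annotated by GENCODE.
Obp2a (chr2:25699943-25700042, plus strand): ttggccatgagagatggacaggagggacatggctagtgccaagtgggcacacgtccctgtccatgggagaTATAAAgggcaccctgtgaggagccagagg
Obp2b (chr2:25736907-25737006, plus strand): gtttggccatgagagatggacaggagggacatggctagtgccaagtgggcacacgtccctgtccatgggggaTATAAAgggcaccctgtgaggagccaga
Lcn3 (chr2:25765433-25765532, plus strand): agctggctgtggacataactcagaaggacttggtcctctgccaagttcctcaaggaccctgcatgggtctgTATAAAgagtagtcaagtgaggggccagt
Lcn4 (chr2:26671283-26671382, minus strand): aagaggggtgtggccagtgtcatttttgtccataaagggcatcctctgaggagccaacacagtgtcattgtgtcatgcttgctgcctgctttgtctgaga
Lcn11 (chr2:25776917-25777016, plus strand): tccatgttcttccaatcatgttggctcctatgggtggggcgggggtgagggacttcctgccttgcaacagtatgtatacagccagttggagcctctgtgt
Obp1a (chrX:78091375-78091474, minus strand): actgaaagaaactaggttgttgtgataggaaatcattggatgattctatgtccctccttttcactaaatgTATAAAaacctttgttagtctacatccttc
Obp1b (chrX:78186677-78186776, plus strand): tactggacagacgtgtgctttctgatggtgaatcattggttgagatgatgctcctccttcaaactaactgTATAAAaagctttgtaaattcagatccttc

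Obp2a and Obp2b shared nearly the same upstream sequence, with 97 of 98 aligned bases identical, and Obp1a and Obp1b shared 69 of 99. Lcn3 and Obp2b matched at 62 of 97 bases, and Lcn3 and Lcn4 at 50 of 94. TATAAA, searched on the strand of the gene, stood 28 to 30 bases from the end of the window in 5 of the 7 and was not found in the windows of Lcn4 and Lcn11. These distances depend on the window ends, since for Obp2a and Obp1b the RefSeq start lies 31 bases further on. In all 5 TATAAA also lay within the 100 bases before the RefSeq start. Of 32851 RefSeq promoters, 1248 (3.80%) held it in the 100 bases before their start, and 1827 held it on either strand. The transcripts of the paired genes were less alike than the Obp2 windows. Obp2a and Obp2b transcripts aligned with 74.6% identity (67.0% in their last 300 bases) and those of Obp1a and Obp1b with 73.7%.

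The markers of a gland that the rule did not use were present. Wfdc18 had a UMI in 238 of 239, 78 of 79 and 345 of 345 members of the P10 control, P10 mutant and 3-month libraries, and its pooled level was 14.4, 22.8 and 34.1 times that of the other cells. Leukocytes outside the rule also held Wfdc18, at 702, 437 and 5090 CPM, so a UMI of it does not by itself mark a gland cell. Dmbt1 had a UMI in 150, 62 and 267 members and stood 32.3, 56.1 and 42.5 times above the other cells. The summed markers of leukocytes, neutrophils, macrophages, B and plasma cells, T cells, endothelial cells, fibroblasts, osteoblasts, smooth muscle, basal epithelium, ciliated cells and neurons were each lower in members than in the other cells of all 3 libraries. In the P10 libraries the sustentacular list was higher in members (3467 against 2250 CPM, counts scaled to a total of 1000000 UMIs, in the control), and 1 of its genes is Krt18, a keratin common to simple epithelia. The glia list was slightly higher in members there too (81.4 against 64.5 CPM in the control and 72.0 against 56.4 CPM in the mutant).

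Tfap2e, the targeted gene, was counted 4, 48 and 32 times in the members of the P10 control, P10 mutant and 3-month libraries. That is 1.04 (interval 0.283 to 2.66), 29.3 (21.6 to 38.8) and 9.04 (6.19 to 12.8) CPM. Both mutant libraries were above the control, as their labels give. In the P10 mutant, 35 of 79 gland cells had a Tfap2e UMI at a median of 19847 UMIs a cell, and 163 of 1156 leukocytes outside the rule (14.1%) had one at a median of 5429.5 UMIs. Leukocytes should lack the neuronal driver. These were cells with at least 3 UMIs of leukocyte markers, and cells also holding neuron markers were not left out. Their pooled level was 65.9 CPM, and in the 3-month library it was 22.2 CPM. With every cell thinned to 1000 UMIs, 3.80% of gland cells and 3.63% of leukocytes had a UMI in the P10 mutant, and 2.61% and 1.85% at 3 months. The pooled level of the gland cells was below that of leukocytes in both mutant libraries, although 1 leukocyte held 179 of the 808 leukocyte UMIs of the P10 mutant. In that library 179 was also the most Tfap2e UMIs in 1 cell with at least 3 neuron UMIs. Since the leukocytes were not cleared of neuron markers, Tfap2e expression of the gland cells is neither read from these values nor excluded. In Lcn3-led and Obp2a-led gland cells of the P10 mutant the level was alike, 29.0 and 29.7 CPM. Omp itself had 5, 1 and 8 UMIs in the members.

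The libraries shared 21 to 30 of their cell barcodes pairwise, and no member's barcode was a member in another library. Members of the rule made up 5.55% (4.89 to 6.28) of the kept P10 control cells, 2.11% (1.68 to 2.62) of the P10 mutant cells and 6.50% (5.85 to 7.20) of the 3-month cells. With a threshold of 5% in place of 2% the shares were 3.16%, 1.60% and 2.98%. With members of at least 5000 UMIs alone, an alternative added after seeing the data, they were 3.02%, 1.95% and 1.75%, so the order of the libraries depended on the setting. Dissociation and capture bear on such shares, and the share of glands in the tissue was not measured. The members differed in depth more than in number: the median control member had 7815 UMIs and 2179 genes, the median P10 mutant member 19847 UMIs and 3887 genes, and the median member at 3 months 1894 UMIs and 675 genes, against medians of 11664.5, 11220 and 8498.5 UMIs in the other cells. At the threshold itself, the highest share outside and the lowest inside were 1.98% and 2.00% for the control, 1.74% and 2.03% for the P10 mutant and 1.99% and 2.00% at 3 months. Between 1.5% and 2% lay 42, 5 and 145 cells, and between 2% and 2.5% lay 38, 5 and 77 members. Cells lay on both sides of the threshold in each library, most of them at 3 months.

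**Figure D1:**
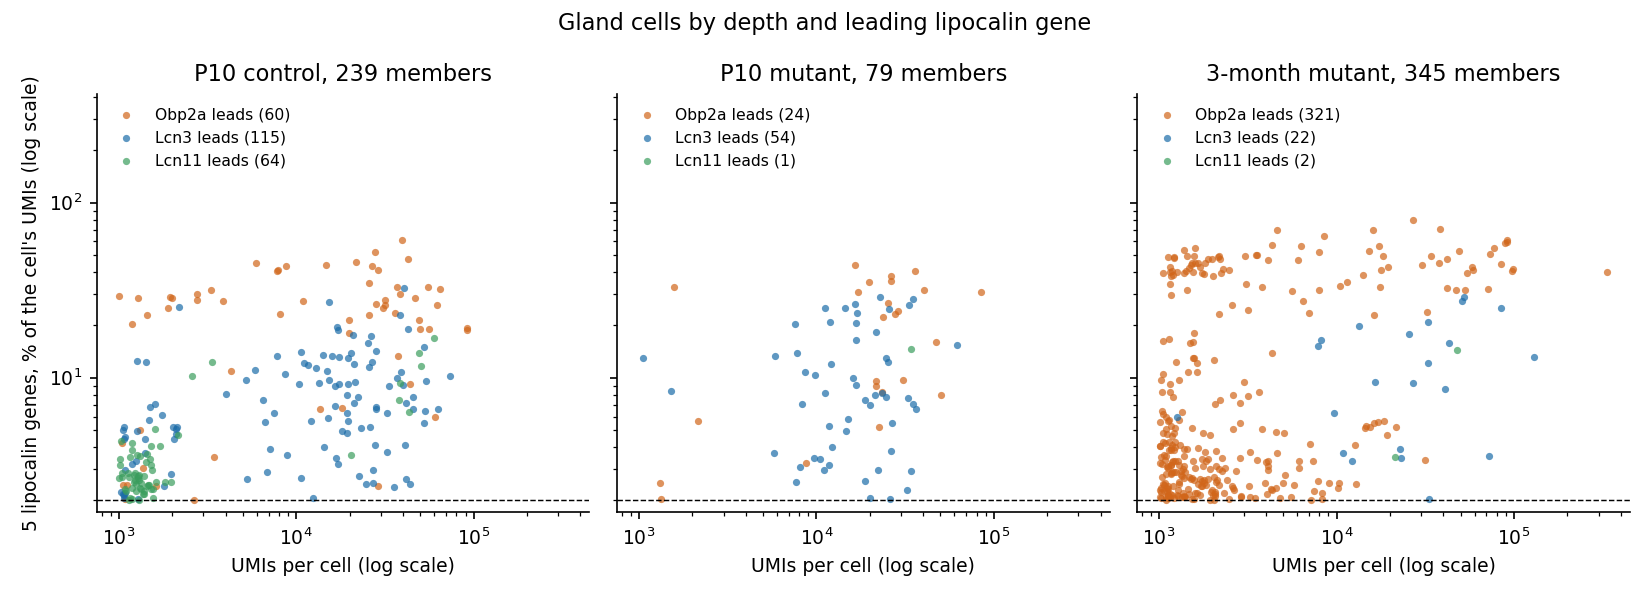
Each point is 1 gland cell, placed by its UMIs (x axis, log scale) and by the percent of its UMIs from the 5 lipocalin genes (y axis, log scale), in 1 panel per library. Colours give the gene with the most UMIs among the 5, and the dashed line is the 2% threshold. The 64 Lcn11-led cells of the P10 control lie mostly near 1329 UMIs and 2.74%, and the 321 Obp2a-led cells of the 3-month library fall into a low and a high group.

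Lcn3 and Obp2a together supplied most of the lipocalin RNA in every library. Lcn3 made up 6.88%, 8.59% and 8.66% of all member UMIs in the P10 control, P10 mutant and 3-month libraries, nearly level across them. Obp2a made up 6.88%, 6.34% and 18.1%, and Obp2b 0.464%, 0.445% and 1.72%, so both Obp2 genes stood highest at 3 months. Lcn4 had 1210, 132 and 53081 UMIs, or 0.0315%, 0.00805% and 1.50%. Lcn11 went the other way when summed, with 0.981%, 0.405% and 0.315%, but single cells weighed on both mutant values. In the P10 mutant 1 cell of 34061 UMIs had 14.5% of them from Lcn11. Of the 11156 Lcn11 UMIs at 3 months, 8522 were in the 20 cells rich in Obp1a described below. There 1 cell held 80.4%. The median member had 0.00227%, 0% and 0% of its UMIs from Lcn11. The 5 genes summed to 15.2%, 15.8% and 30.3% of member UMIs, and in single cells they reached 61.5%, 43.8% and 79.3%. The largest cell held 2.39%, 5.14% and 9.50% of its own library's member UMIs. Obp2a over Obp2b, neighbours with nearly the same upstream window, had a ratio of 14.8 (14.6 to 15.04), 14.3 (13.9 to 14.6) and 10.5 (10.5 to 10.6).

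Single cells usually held 1 leading lipocalin. Lcn3 led in 115, 54 and 22 members of the 3 libraries, Obp2a in 60, 24 and 321, Lcn11 in 64, 1 and 2, and Lcn4 and Obp2b in none. Where Lcn3 led, it took a median of 98.2%, 99.3% and 83.1% of the cell's lipocalin UMIs. Where Obp2a led, it took 64.5%, 65.4% and 68.8%, and most of the rest was Lcn3. Lcn3 had 77314, 70538 and 95628 CPM in Obp2a-led cells with at least 5000 UMIs, about its level in Lcn3-led cells of that depth (76588, 98407 and 105006 CPM). Obp2a, in contrast, had 13207, 12586 and 33348 CPM in Lcn3-led cells against 172904, 151620 and 254746 CPM in Obp2a-led cells. The split was made on these genes, so the higher Obp2a level of Obp2a-led cells is built in, and the levels are descriptions. Under this split the Obp2a-led cells carried both genes, and the Lcn3-led cells mainly Lcn3.

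Gland RNA was also found in cells that are not glands. Leukocytes outside the rule, which should lack these genes, held 515 (501 to 529) CPM of the 5 genes at P10 with the control genotype, 140 (134 to 147) with the mutant genotype and 2754 (2730 to 2779) at 3 months. At least 1 UMI of them was found in 93.6%, 57.4% and 99.96% of these leukocytes, at median depths of 6136, 5429.5 and 5183 UMIs. The 3-month library, with the most lipocalin RNA in its members, also had the most in its leukocytes, 0.318% of the UMIs of the median cell. Endothelial cells and fibroblasts of that library held 2001 and 1900 CPM. The P10 libraries did not share this order. Their members held 15.2% (control) and 15.8% (mutant) of UMIs from the 5 genes, and their leukocytes 515 and 140 CPM.

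The mix of the 5 genes in shallow members differed between P10 control and 3-month libraries. In the 3-month library, the 5 genes split in leukocytes as 25.04% Lcn3, 3.57% Lcn4, 0.986% Lcn11, 65.3% Obp2a and 5.15% Obp2b. Members with under 5% lipocalin RNA and under 2000 UMIs split as 22.1% Lcn3, 3.52% Lcn4, 0.371% Lcn11, 68.6% Obp2a and 5.44% Obp2b, and members with at least 10% as 27.9% Lcn3, 5.07% Lcn4, 0.900% Lcn11, 60.4% Obp2a and 5.78% Obp2b. All 3 had nearly the same mix. Of the 187 members at 2% to 5% in this library, with a median of 1598 UMIs, 90 had at least 3 UMIs of leukocyte markers, and the sum of these markers was 2838 CPM. The 96 members at 20% or more had 23.4 CPM of them. At least 3 UMIs of B and plasma cell markers were in 237 of the 345 3-month members (68.7%), against 1 of 239 in the P10 control and 1 of 79 in the P10 mutant. Over the whole library, 120 of 345 members (34.8%) held 3 or more leukocyte UMIs, against 5 of 239 in the P10 control and 4 of 79 in the P10 mutant. Among members with at least 10% lipocalin RNA the counts were 8 of 118, 0 of 83 and 1 of 37. How many shallow 3-month members are leukocytes or debris with free gland RNA was not tested.

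In the P10 control the shallow members had a mix of their own. Lcn11 made up 55.5% of the lipocalin UMIs of members with under 5% and under 2000 UMIs, against 6.13% in leukocytes of the same library and 5.38% in members with at least 10%. Most were the 57 Lcn11-led cells with fewer than 5000 UMIs, and their other genes are given below.

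**Figure D2:**
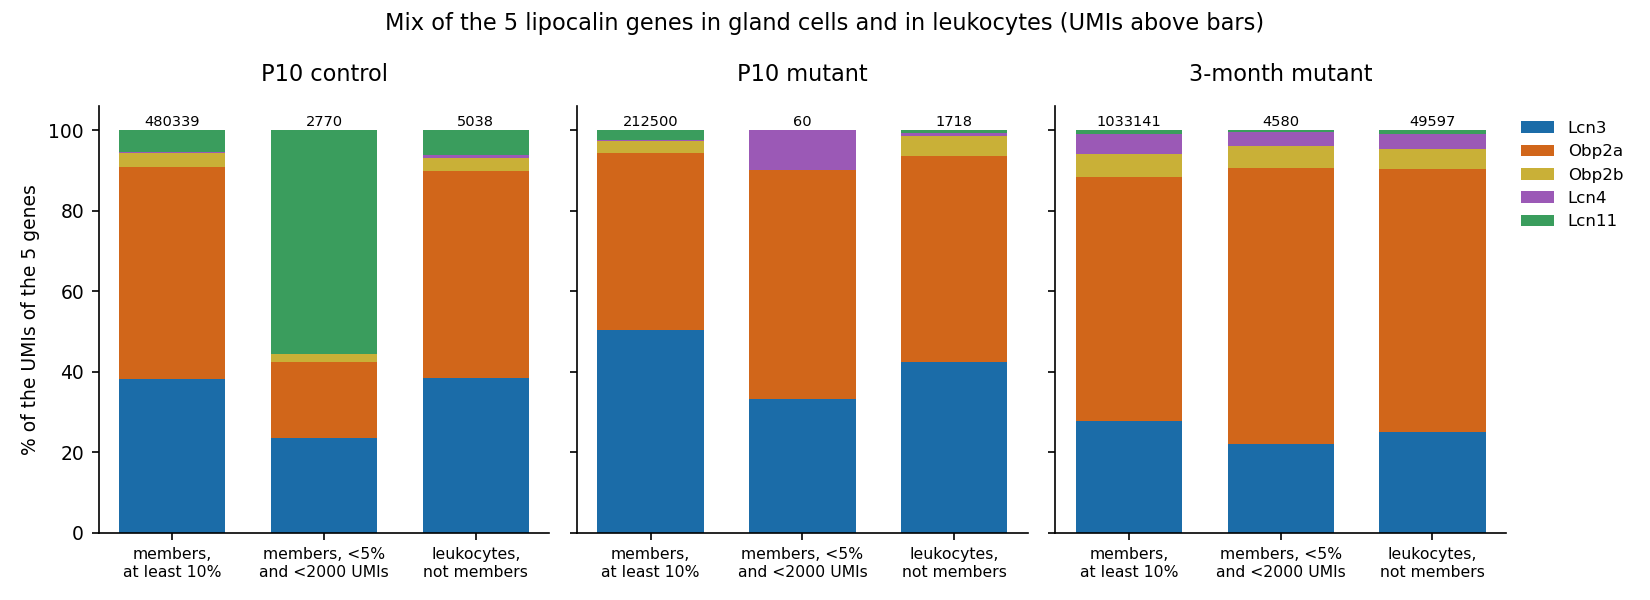
Bars show how the UMIs of the 5 lipocalin genes divide among the genes (percent, y axis) in members with at least 10% lipocalin RNA, in members under 5% and under 2000 UMIs, and in leukocytes outside the rule, with the UMI total above each bar. The shallow P10 control members are the 1 group led by Lcn11, at 55.5%, and the 3 bars of the 3-month library are nearly alike (the P10 mutant's shallow bar rests on 60 UMIs).

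Genes outside the rule also set the pooled gland cells apart. Of 14555 genes compared, 60 (0.412%) were at least 4-fold higher in members than in the other cells of every library. Among the 20 with the largest smallest ratio, secreted or glandular products were Pip (prolactin-induced protein; 79.9, 100 and 107 times), Dmbt1, A2ml1 (a protease inhibitor of the alpha-2-macroglobulin family; 18.2, 33.9 and 23.5 times), Rnase1 (a secreted ribonuclease; 81.5, 109 and 23.7 times), Wfdc18, Car6 (the secreted carbonic anhydrase) and the secretoglobins Scgb1b27 and Scgb2b27. Scgb1b27, Scgb2b27 and Car6 came almost wholly from 1 cell in each mutant library, which held 98.1% to 100% of their UMIs, and 1 cell of the P10 control held 48.8% to 71.4%. Genes of the secretory cell type were Bhlha15, a transcription factor of serous acinar cells (82.2, 64.7 and 14.3 times), Derl3, a factor of endoplasmic reticulum degradation (47.1, 85.5 and 7.99 times), and Qsox1, which forms disulfide bonds in secreted proteins (18.3, 22.1 and 14.9 times). Epithelial ones were Cldn10, a claudin of ion-conducting tight junctions, Gjb1, a gap junction protein, and the transcription factor Gata6. The other genes of the 20 were Snhg7os, A230005M16Rik, BC006965, Cited4, 5330417C22Rik and Mia. These genes are the ones a contrast of this kind picks, so the ratios describe the cells.

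Among gene lists, 4 of 12 antimicrobial and defence genes compared passed 4-fold in every library (Dmbt1, Wfdc18, Pip and Ltf, the iron-binding lactoferrin), while the median log2 ratio of the list was -1.40, -0.71 and -1.91, and 2 of 19 epithelial genes passed (Cldn10 and Elf5, a factor of secretory epithelia). From the lists of secretory transcription factors and of ion and water transport, 1 gene each passed, Bhlha15 and Vipr1, the receptor for vasoactive intestinal peptide. None of the 28 genes of the endoplasmic reticulum machinery did, and their median log2 ratio was 0.82, 0.94 and 0.17, where the median over all genes compared was -0.66, -0.58 and -1.35.

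Lcn3-led and Obp2a-led cells were then set against each other within each library, with cells of at least 5000 UMIs (84, 52 and 21 Lcn3-led and 39, 20 and 70 Obp2a-led cells). Of 2840 genes, 7 (0.246%) were at least 4-fold higher in Lcn3-led cells in every library (Wfdc3, Ly6d, Sgk1, Muc1, Sftpd, Ccl9 and Cyp2f2), and 0 were in Obp2a-led cells. Wfdc3, another whey acidic protein gene, had 143 UMIs in Lcn3-led cells of the P10 control and 0 UMIs in the Obp2a-led ones (31.6-fold with 0 set at 3 UMIs, lower bound 25.3), and ratios of 40.2 and 22.1 in the mutant libraries. Ly6d, a membrane-anchored protein of epithelia, was 23.6, 22.8 and 7.11 times higher in Lcn3-led cells, and Sgk1, a kinase that controls sodium transport, 9.55, 13.4 and 6.26 times. Muc1, a membrane mucin, was 11.5, 5.47 and 5.22 times higher, and Sftpd, the collectin surfactant protein D, 8.65, 4.87 and 12.3 times. At 2-fold in every library the counts were 38 genes (1.34%) higher in Lcn3-led cells and 2 higher in Obp2a-led cells, Bri3bp (2.40, 3.69 and 2.51 times) and the non-coding Meg3, which was named after its values were seen. Cells were split by their leading lipocalin and not by these genes, and the ratios have no test.

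The 2 kinds also differed in antimicrobial products at P10. Ltf had 9730 CPM in Lcn3-led and 155 CPM in Obp2a-led cells of the P10 control, and 9779 and 192 CPM in the P10 mutant. Wfdc18 had 75602 against 23237 CPM in the control and 87300 against 18381 CPM in the mutant. Slc26a4, the anion exchanger pendrin, went the other way, with 79.2 against 154 CPM in the control and 66.2 against 160 CPM in the mutant.

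Lcn11-led cells were a further kind, seen mainly in the P10 control. Of its 64 cells, 7 had at least 5000 UMIs, and in these Lcn11 was 10.9% of the UMIs, with 18 UMIs of Lcn3 and 27 of Obp2a among all 7. They were set against the 123 other members of that depth in the library, over 6308 genes, of which 70 were at least 4-fold higher and 604 at least 4-fold lower. Obp1a, an odorant-binding protein gene, had 14020 UMIs in 5 of the 7 cells (46892 CPM) and 12 UMIs in the other 123 (3.55 CPM). Its neighbour Obp1b had 35 UMIs, all in 1 cell, a ratio of Obp1a to Obp1b of 401 (288 to 576). Gm14744, a lipocalin-family gene on the same stretch of chromosome X, had 24644 CPM, and Mup5, a major urinary protein gene, had 213 UMIs in 3 cells. By cell, Obp1a had 0, 2837, 4749, 6237, 0, 49 and 148 UMIs where Lcn11 had 10073, 5853, 6803, 2745, 3565, 2821 and 733. The 2 cells without Obp1a also had no Gm14744, so the genes of chromosome X were in 5 of the 7 and Lcn11 in all. Over the 7 cells Ltf ran from 10 UMIs, in the cell with the fewest Lcn11 UMIs, to 5621.

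Further products of the Lcn11-led cells were the secretoglobins Scgb1b27 (40039 CPM, of which 1 cell held 73.7%) and Scgb2b27 (41574 CPM, in all 7 cells), Pglyrp1, a peptidoglycan-binding protein (15469 CPM), and Car6 (10068 CPM, in 6 of 7 cells). The last 3 were uneven over the 7 cells, at 8 to 6488 UMIs of Scgb2b27, 1 to 3149 of Pglyrp1 and 0 to 1820 of Car6. The cells next to the highest held 3055, 709 and 705 UMIs. By the rule for named genes, the largest ratios after Obp1a were Sema3b (354 times, 94 against 3 UMIs), St3gal4, a sialyltransferase (63.5 times), Bricd5, Cald1, Rasl11b and Rgcc (17.3 times), and Aldoa, a glycolytic enzyme, stood 12.1 times higher. Several products of the other gland cells were low or missing, though Wfdc18 had 209 to 1056 UMIs in each of the 7 (12088 CPM). Dmbt1 had 1 UMI in the 7 cells (3.34 CPM, against 5946), A2ml1 had 12 (40.1 against 6116 CPM), and Pip, Meis2 and Timp3 had 0 against 927, 2166 and 808 UMIs.

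The 57 shallow Lcn11-led cells, at a median of 1307 UMIs, held part of the same set and differed in other genes. Wfdc2 had 1346 CPM in the 57, with a UMI in 49 of them, and 16.7 CPM in the 7 deep cells. Tubb5 had 465 and 10.0 CPM. Dmbt1 and A2ml1, low in the 7, were at 75.5 and 252 CPM in the 57. Lcn11 had 29670 CPM in them. Ltf (23356 CPM), Scgb2b27 (10376 CPM), Pglyrp1 (7899 CPM) and Car6 (7333 CPM) had a UMI in 57 of 57 cells, Scgb1b27 in 53 and Csn3, a casein gene, in 35, while Obp1a, Gm14744 and Mup5 had 0 UMIs in all 57, which allows up to 3 UMIs of each. Leukocytes of the library held Lcn11 as 6.13% of their lipocalin UMIs, as given above. The P10 mutant had 1 Lcn11-led cell and the 3-month library 2, so no comparison of these cells between libraries was made.

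Between the P10 libraries, gland cells differed little. Of 7794 genes with at least 50 UMIs in both libraries together, 77 (0.988%) were at least 2-fold higher in the mutant and 169 (2.17%) at least 2-fold lower, with a median log2 ratio of -0.01. The higher genes by the near bound of their interval were Tfap2e (28.2 times, 10.3 to 108; its level in leukocytes is given above), Gm20186 (3.27), Timp3, an inhibitor of metalloproteinases (2.59, 2.35 to 2.84), Chka, a choline kinase (2.43), the nuclear receptor Nr4a3 (2.65), Vcl, the adhesion protein vinculin (2.12), Rbms3 (2.85), Dmbt1 (1.79, 1.75 to 1.83), Creb5 (2.32) and Olfml3 (2.27). Lower ones were Bpifa1, a secreted airway defence protein (0 against 76 UMIs, a ratio of 0.0926 with 0 set at 3 UMIs, upper bound 0.117, with 0.422 against 783 CPM in the cells outside the rule), Lyz2, lysozyme of myeloid cells (0.229), Cald1 (0.340), Ftl1-ps1 (0.502), Pfkl (0.423), Nsg1 (0.251), Lgals3, galectin-3 (0.396), Flywch1 (0.278), Nxt1 (0.359) and Stmn1, a tubulin-binding protein of dividing cells (0.541). Lyz2 is also a gene of macrophages and neutrophils and Cald1 of smooth muscle. The macrophage list stood at 151 CPM in P10 control members and 115 CPM in P10 mutant members, and the smooth muscle list at 186 and 16.5 CPM. The part of such cells in the differences was not tested. Of the lower genes, Cald1 was also among the genes higher in Lcn11-led cells, which numbered 64 in the control and 1 in the mutant.

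The secretory machinery was nearly level between the P10 libraries. None of 28 endoplasmic reticulum genes passed 2-fold in either direction (median log2 ratio 0.09), with Hspa5, the chaperone BiP, at 1.23 times and Ssr2, of the translocon, at 0.993 times. None of 9 secretory transcription factors passed either, and Xbp1, the factor of the unfolded protein response, was at 1.08 times. Of 12 antimicrobial genes, 1 was higher (Slpi, a protease inhibitor, of which 1 mutant cell held 95.3%) and 5 were lower, among them Reg3g, a bactericidal lectin (9 against 433 UMIs, of which 1 control cell held 43.9%). Of 4 lipocalin genes outside the rule, Lcn2 was higher (2.53 times) and Obp1a, Gm14744 and Mup5, the genes of the Lcn11-led cells, were lower, at 0, 1 and 0 UMIs in the mutant against 14032, 7373 and 213 in the control. Among rule genes, Lcn4 was at 0.256 times, but 65.3% of its UMIs in Obp2a-led control cells were in 1 cell.

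Cells with the same leading gene were compared at P10 as well, and the balance of higher and lower genes differed between the kinds. In Lcn3-led cells 51 of 5859 genes were at least 2-fold higher in the mutant and 140 lower, and in Obp2a-led cells 89 of 3950 were higher and 51 lower. Dmbt1 was 1.64 (1.60 to 1.68) times higher in the mutant in Lcn3-led cells and 1.31 (1.24 to 1.39) times in Obp2a-led cells. Ltf was at 1.01 and 1.24 times, and Wfdc18 at 1.15 and 0.791 times.

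Summed over members, secreted products took a larger part of the RNA at 3 months than in the P10 mutant. A fixed set of 64 genes for major secreted products, the 5 lipocalins included, took 55.3% of member UMIs at 3 months and 24.4% in the P10 mutant (23.5% in the P10 control). The 5 rule genes are part of this sum, so it is partly a description of what chose the cells. By the median cell, also added after seeing the data, the order depended on depth. Among all members, the median cell had less at 3 months than in the P10 mutant: 4.15% against 9.61% of UMIs from the 5 genes, 3.26% against 4.87% from Wfdc18 and 0.139% against 0.511% from Dmbt1. Among members with at least 5000 UMIs, 93 and 73 cells, the median was higher at 3 months: 20.8% against 9.66% for the 5 genes, 15.6% against 5.26% for Wfdc18 and 0.951% against 0.602% for Dmbt1. A larger pooled share of a few products lowers every other gene on the CPM scale, and the median log2 ratio over 6364 genes was -0.93. On that scale 237 genes (3.72%) were at least 2-fold higher at 3 months and 2858 (44.9%) at least 2-fold lower. With the 64 genes left out of the total, the median was -0.18 and the counts were 416 higher and 624 lower, so the balance between higher and lower genes depended on the scaling. The P10 and 3-month matrices were also counted with different versions of Cell Ranger, so age and counting version cannot be told apart. A lower CPM of a gene does not tell fewer expressing cells from less RNA per cell.

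Summed over members, several secreted products were higher at 3 months on either scale. In all UMIs, Wfdc18 took 19.5% of member UMIs at 3 months and 6.00% in the P10 mutant, a ratio of 3.25 (3.23 to 3.27), which is 5.49 times with the 64 genes left out of the total. Pip was 8.21 (7.62 to 8.86) times higher, Ltf 2.40 (2.34 to 2.45), Pigr, the receptor that carries antibodies into secretions, 1.77 (1.62 to 1.93) and Dmbt1 1.33 (1.30 to 1.35). Lcn4 was 186 (157 to 223) times higher, Obp2b 3.86 and Obp2a 2.86, while Lcn3 was at 1.01. With members thinned to 1000 UMIs, Lcn4 was found in 6.28%, 7.59% and 69.9% of the P10 control, P10 mutant and 3-month members (1.03%, 0.433% and 14.6% of leukocytes), and Dmbt1 in 52.3%, 68.4% and 65.2% (4.004%, 2.77% and 14.8% of leukocytes). Of 10 antimicrobial genes 7 were at least 2-fold higher (Wfdc18, Ltf, Pip, Slpi, Reg3g, Bpifa1 and Lyz2) and none lower, with a median log2 ratio of 1.76, and with the secreted products left out of the total 9 of 10 were, with a median of 2.51. Slpi had 95.3% of its P10 mutant UMIs in 1 cell. At 3 months Bpifa1, Reg3g, Lyz2 and Slpi were lower in members than in the other cells (63.3 against 3656, 132 against 1741, 241 against 1074 and 228 against 917 CPM), and they were higher in those other cells too than in the P10 mutant's (0.422, 341, 424 and 86.1 CPM). Wfdc18, Ltf and Pip were 34.1, 10.6 and 107 times higher in members than in the other cells. The part of free RNA in the values of the former 4 was not tested.

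Most of this held in cells with the same leading gene, compared at 5000 or more UMIs. Wfdc18 was 9.70 (9.52 to 9.89) times higher at 3 months in Obp2a-led cells and 3.91 (3.88 to 3.94) times in Lcn3-led cells. Ltf, low in Obp2a-led cells of the P10 mutant (192 CPM, with 92.2% of it in 1 of 20 cells), had 10352 CPM in them at 3 months, 53.9 (44.9 to 65.3) times more, and was 3.08 times higher in Lcn3-led cells. Dmbt1 was 4.61 times higher in Obp2a-led cells and 1.10 times in Lcn3-led cells, and A2ml1 4.35 and 1.26 times. Lcn4 had 69 UMIs in 20 Obp2a-led cells of the P10 mutant and 50087 UMIs in 70 such cells at 3 months (193 times, 152 to 247, with 36.1% of the 3-month UMIs in 1 cell), and was 11.5 times higher in Lcn3-led cells. The 2 kinds of cell, which differed in Ltf and Wfdc18 at P10, thus lay closer at 3 months: 30149 against 10352 CPM of Ltf and 341459 against 178295 CPM of Wfdc18.

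**Figure D3:**
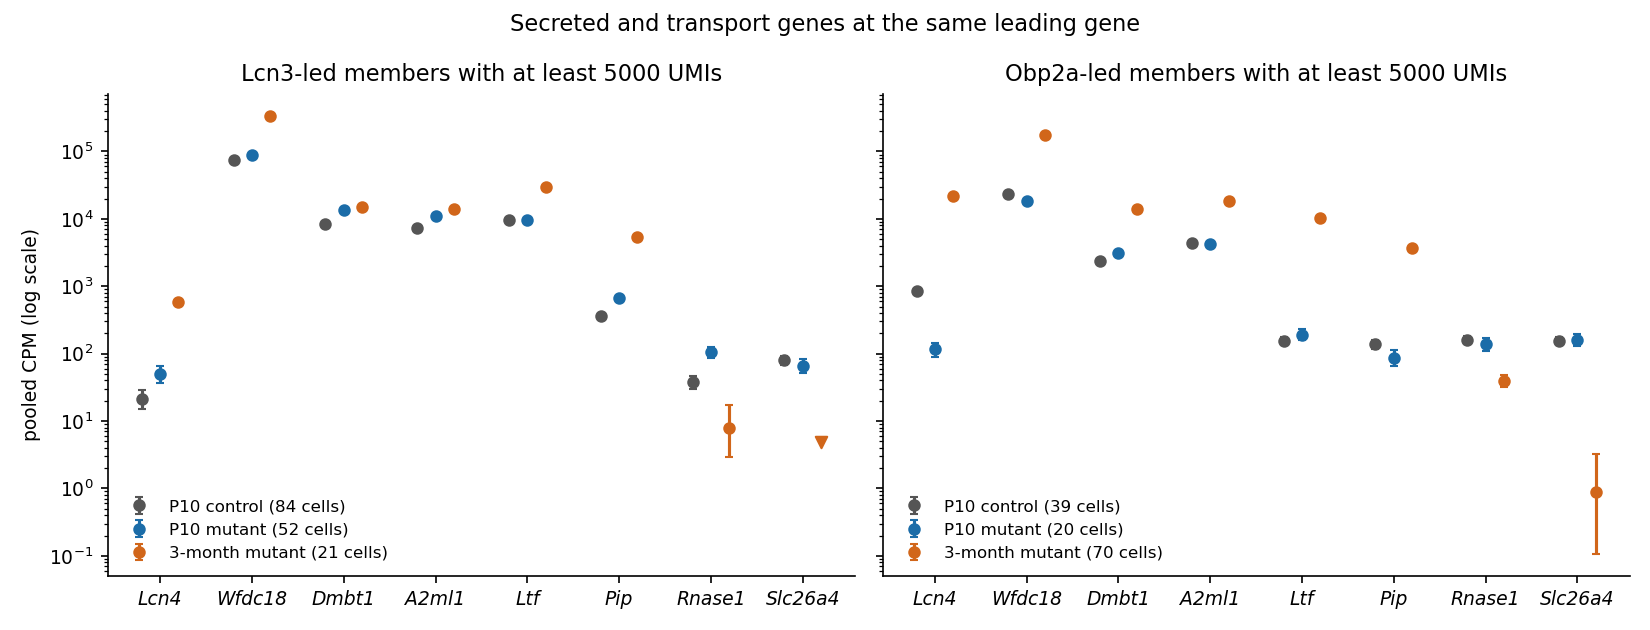
Points are pooled levels of 8 genes (CPM, log scale) in Lcn3-led and Obp2a-led gland cells with at least 5000 UMIs, with 1 colour per library, bars for the 95% interval of counting error and a triangle where no UMI was found, at the level of 3 UMIs or below. In Obp2a-led cells Lcn4, Wfdc18, Dmbt1, A2ml1, Ltf and Pip lie above both P10 libraries at 3 months, and Slc26a4 lies far below, with 2 UMIs.

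Slc26a4 differed in the other direction, although it was not among the 10 lower genes that the naming rule gave between the mutants. That rule leaves out genes with over 20% of their UMIs in 1 cell of the higher library, here the P10 mutant. The upper bound of Slc26a4 (0.0255) was farther out than that of Wif1 (0.0287), the first gene named. By that rule, then, 1 P10 mutant cell held over 20% of its 162 UMIs, which limits the ratio between the mutants. In the P10 control 1 cell held 10.8% of the Slc26a4 UMIs. Slc26a4 had 370 UMIs in P10 control members (96.2 CPM), 162 in P10 mutant members (98.8 CPM) and 3 in 3-month members (0.848 CPM), a ratio of 0.00858 (0.00175 to 0.0255) between the mutants. At the same leading gene it had 66 UMIs in 52 Lcn3-led cells at P10 and 0 in 21 at 3 months, and 96 UMIs in 20 Obp2a-led cells at P10 and 2 in 70 at 3 months. Rnase1 was also lower in all UMIs, at 0.284 times in Obp2a-led cells and 0.0759 times in Lcn3-led cells. On that scale 1977 of 3590 genes were at least 2-fold lower in Obp2a-led cells and 1227 of 3118 in Lcn3-led cells. With the secreted products left out of the total, the counts over all genes were 319 and 356. The 10 genes that the naming rule gave as lowest at 3 months by the near bound were Wif1, an inhibitor of Wnt ligands (8 against 258 UMIs, 0.0144 times), Col9a1, a collagen (0 against 61 UMIs), the histone Hist1h1b (4 against 77), Cldn4, a claudin (0.0544), Gm20186 (0.0496), Ftl1-ps1 (0.0691), Chka (0.0779), Bmx (0.0515), Vcl (0.0783) and Nr4a2 (0.0812). Hist1h1b, like the cell cycle list, is made by dividing cells. Top2a had 108 UMIs at P10 and 2 at 3 months, Mki67 had 99 and 4, and Birc5, Ccnb1 and Ccnb2 had 38, 13 and 20 and then 0. Of 7 cell cycle genes 7 were at least 2-fold lower (median log2 ratio -2.21), and 5 of 7 (median -1.45) with the secreted products left out. Single cells weighed on these sums, and 1 of the 52 Lcn3-led cells of the P10 mutant held 83.3% of their 36 Top2a UMIs.

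Most other lists stood near the shift of all genes or below it, and the xenobiotic and hormone receptor lists above it. Of all 6364 genes, 2858 (44.9%) were at least 2-fold lower, or 624 without the secreted products. The 28 endoplasmic reticulum genes had a median of -1.06, with 15 at least 2-fold lower, where the median of all genes was -0.93. Without the secreted products their median was -0.30 and 1 of 28 was lower, Ssr2 (0.475 times), so the list lay near the other genes. In Obp2a-led cells of at least 5000 UMIs its median without the secreted products was -0.07, with 0 of 28 past 2-fold, where the antimicrobial list stood at 4.56, with 9 of 10 higher. Atf4, a stress-response factor, was at 0.237 times, or 0.400 without the secreted products, and Xbp1 at 0.429 or 0.725. The 18 epithelial genes had a median of -1.43, or -0.68 without the secreted products, with 16 or 6 of 18 at least 2-fold lower. Cldn4 was at 0.0544 or 0.0920 times, Elf3, a factor of epithelial cells, at 0.187 and the keratin Krt8 at 0.229 or 0.387. Immediate early and heat shock genes, which respond to dissociation, had a median of -1.62 or -0.86, with 11 or 4 of 11 lower, and ion and water transport genes -1.34 or -0.58, with 8 or 1 of 12 lower. The median of 8 xenobiotic metabolism genes took the other sign with the other scaling, at -0.39 or 0.37, and Ces1d, a carboxylesterase, was at 0.114 times. Hormone receptors had a median of -0.56, or 0.20 without the secreted products, with 1 of 4 genes lower (Ghr, the growth hormone receptor, 0.222 times).

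**Figure D4:**
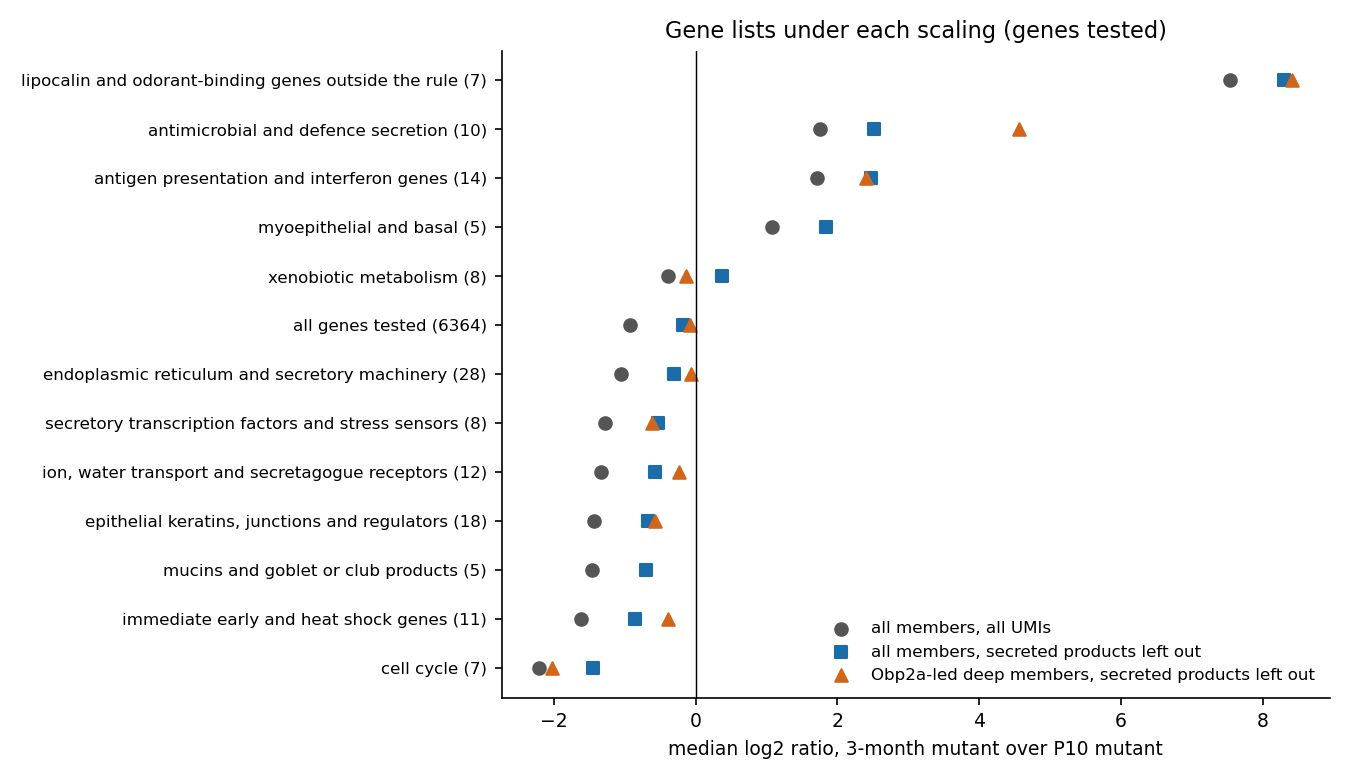
Points give the median log2 ratio (x axis) of each gene list between 3-month and P10 mutant gland cells, for all members with all UMIs, for all members with the 64 secreted products left out, and for Obp2a-led members of at least 5000 UMIs with them left out (these have fewer genes tested than the number beside the name). The median of all genes is -0.93, -0.18 and -0.09 in the 3 settings, and the lipocalin, antimicrobial and antigen presentation lists lie to its right in each.

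Genes of immune cells were higher among 3-month members too. By the near bound, the genes outside lipocalins included Igkc, an immunoglobulin chain (23143 against 7 UMIs), Ighg2c (5530 against 0), Il1b (85.0 times), AW112010 (291 against 0 UMIs), Bpifa1 (224 against 0) and Lyz2 (49.4 times). The summed B and plasma cell markers stood at 12.2 CPM in P10 mutant members and 6938 CPM in 3-month members, below the 27338 CPM of other 3-month cells, and leukocyte markers at 63.4 and 760 CPM. At 20% or more lipocalin RNA the 3-month members held 215 CPM of the B and plasma list. Antigen presentation and interferon genes had a median log2 ratio of 1.72, with 10 of 14 at least 2-fold higher, among them B2m, the light chain of class I molecules (6.00 times). In members with at least 10% lipocalin RNA their median was 0.37, in members with at least 5000 UMIs 0.61, and in cells of that depth -0.06 where Lcn3 led and 1.42 where Obp2a led. Acta2 (17.9 times) and Myh11 (21.8 times), of smooth muscle and myoepithelium, were higher as well, with the smooth muscle list at 16.5 and 329 CPM. What part these other cells had in the differences was not tested. RNA counted to Gm42418, a gene that overlaps ribosomal RNA, was 7.82% of the UMIs of 3-month members at 2% to 5% lipocalin RNA and 1.92% at 20% or more, against 0.126% to 0.273% over the bands of both P10 libraries.

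Odorant-binding genes of chromosome X were found together in some gland cells at 3 months. Obp1a had 6054 UMIs in members of the 3-month library and none in the P10 mutant, Obp1b 4593 and none, Mup4 1208 and none and Mup5 828 and none. With 0 set at 3 UMIs these are 935, 709, 187 and 128 times, with lower bounds of 760, 577, 151 and 104. Gm14744 had 3586 UMIs and 1 (1661.4 times, 298 to 65639). Mup4 and Mup5 transcripts are 92.8% identical, so the split of reads between them is uncertain. Of 93 members with at least 5000 UMIs, 20 had at least 10 Obp1a UMIs, of which 16 were led by Obp2a, 2 by Lcn3 and 2 by Lcn11. At least 10 UMIs of Obp1b were found in 19 of these 20, of Gm14744 in 18, of Mup4 in 16 and of Mup5 in 13, and in none of the other 73 for any of the 4. The 5 genes thus came together in the same cells. Markers of other cell types moved with them. Of the 20 cells, 9 had at least 3 leukocyte UMIs, against 15 of the 73, and the summed B and plasma markers stood at 36749 against 191 CPM, neutrophil markers at 2784 against 110 CPM and smooth muscle markers at 1759 against 19.8 CPM. Without cells holding 3 or more leukocyte UMIs, an alternative added after seeing the data, 11 of the 20 cells and 58 of the 73 were left, with B and plasma markers at 280 CPM in the 11. Of these 11, at least 10 UMIs of Obp1b were in 10, of Gm14744 in 9, of Mup4 in 7 and of Mup5 in 5, and in none of the 58. The part of other cells in this set was not otherwise tested.

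These 20 cells had less of the usual products. By the median cell, Obp2a made up 1.96% of UMIs against 19.2% in the other 73, Lcn3 1.08% against 7.88%, Wfdc18 4.54% against 18.7% and Dmbt1 0.127% against 1.28%, while Obp1a made up 1.60% against 0% and Lcn11 0.495% against 0.0131%. In the 11 and 58 cells with few leukocyte UMIs, Obp2a was at 1.40% against 20.2%, Wfdc18 at 2.48% against 19.7% and Lcn11 at 0.241% against 0.0206%. Over the 20 and the 73 cells, Lcn4 had 277 and 19208 CPM, or 0.0488% and 0.135% in the median cell, and 1 of the 73 held 35.9% of their Lcn4 UMIs. Pooled Lcn11 was 18756 against 851 CPM, but 1 cell held 80.4% of it. Leukocytes of the library held Obp1a and Obp1b at a ratio of 1.18 (1.10 to 1.27), near the 1.32 (1.27 to 1.37) of the members. The P10 control's Obp1a cells differed from them in mix: all 5 were led by Lcn11, and Obp1a over Obp1b was 401 there. Of the secretoglobins, Scgb1b27 was found in 1 of the 20 cells, and Scgb2b27 in 17 of the 20 (0.0199% in the median cell) and in 2 of the 73 others, with 98.9% of its UMIs in 1 cell.

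**Figure D5:**
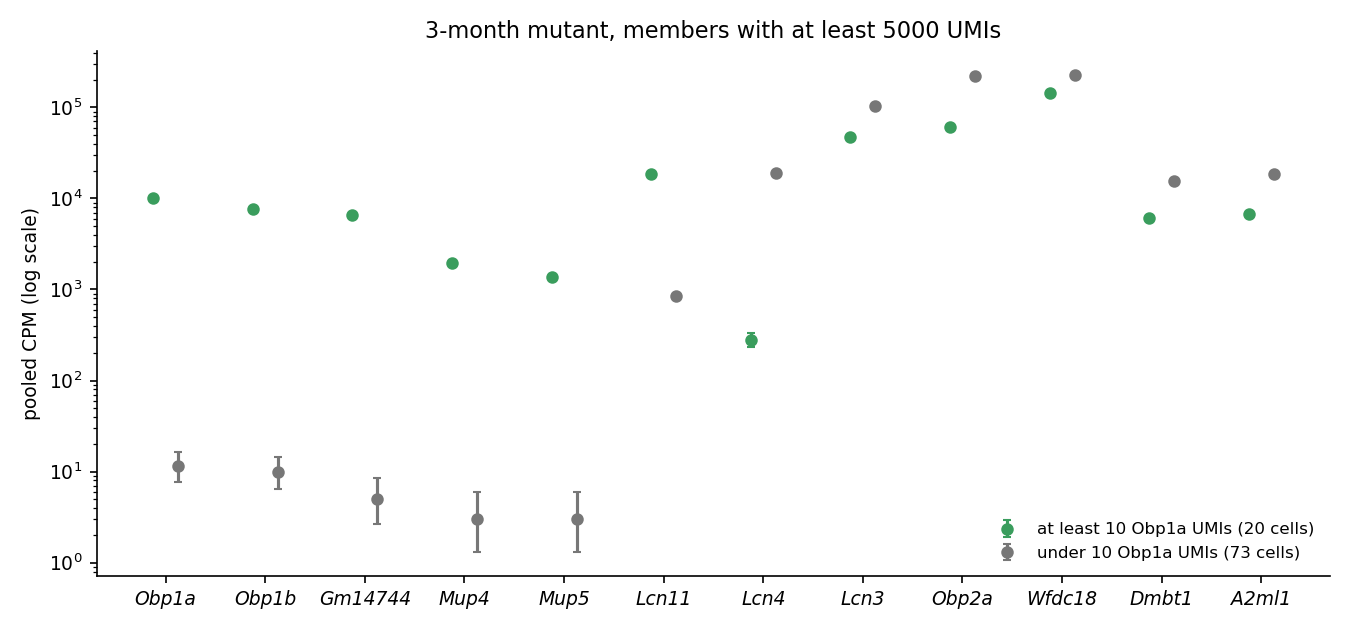
Points are pooled levels of 12 genes (CPM, log scale) in the 20 gland cells of the 3-month library with at least 10 Obp1a UMIs and in the 73 others of at least 5000 UMIs, with bars for the 95% interval of counting error. Obp1a, Obp1b, Gm14744, Mup4 and Mup5 lie between 1373 and 10113 CPM in the 20 and at or under 11.4 CPM in the 73 (cells chosen by Obp1a), and Lcn4 lies at 277 against 19208 CPM.

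Set against the P10 control, the 3-month mutant differed in age, genotype and library at once. Of 8047 genes, 251 (3.12%) were at least 2-fold higher and 3871 (48.1%) at least 2-fold lower. Slc26a4 (3 against 370 UMIs), Apol10a (3 against 285), Wif1 (8 against 438) and the cell cycle genes Ccnb2, Ccna2 and Pbk (0 against 95, 78 and 110) were among the lowest here too. Igkc (23143 against 0), Ighg2c (5530 against 0), Mup4 (1208 against 0) and Obp1b (143 times, 102 to 205) were among the highest, and the others by the near bound were Ms4a4b, AW112010, Nkg7, S100a9, Igkv6-17 and Trbc2, of which S100a9 is a gene of neutrophils, Igkv6-17 of antibodies, and Nkg7 and Trbc2 of T and natural killer cells. Obp1a, at 0.469 (0.455 to 0.483) times the P10 control, and Gm14744, at 0.529 (0.508 to 0.550) times, were lower, and in the control Lcn11-led cells held nearly all of both.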

How the data were processed

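Whole vomeronasal organs were dissociated with papain and their cells were run as 3 single-cell libraries with 10x Chromium 3′ chemistry, so a UMI tags a transcript near its 3′ end and levels need no scaling by length. The authors made the deposited count matrices (UMI counts per gene and barcode, 32285 features, not normalized) with Cell Ranger on mm10. Per the file headers the P10 matrices came from version 4.0.0 and the 3-month matrix from 6.0.1, while the submitters' processing notes give 4.0.0 for all. Comparisons across age therefore also compare counting versions. The authors filtered cells in Seurat 3.2.3 at 5% mitochondrial UMIs, which was tried as an alternative here.

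Cells with 200 to 9000 genes, at least 1000 UMIs and at most 10% mitochondrial UMIs were kept, and no doublet caller was run. Members were cells with at least 2% of their UMIs from Lcn3, Lcn4, Lcn11, Obp2a and Obp2b. Leukocytes, endothelial cells and fibroblasts outside the rule had at least 3 UMIs of their markers, and 1 cell could be in several classes. Members and gene lists were chosen with earlier results of these data known. UMIs were summed over members per library and given as CPM (counts scaled to a total of 1000000). With 1 library a group there was no test. A gene was compared between libraries where both together had at least 50 UMIs and was counted when past 2-fold, or past 4-fold in every library over other cells. Intervals were exact: Poisson for levels, Clopper-Pearson for shares and conditional binomial for ratios. A group at 0 was set at 3 UMIs. Genes named were the 10 per direction with the interval bound nearest to no difference farthest out, and the 20 with the largest smallest ratio over other cells, leaving out those with over 20% of their UMIs in 1 cell where libraries were compared. The 64 secreted-product genes, the leading-gene groups and the Obp1a cells were set after seeing the data. Some genes that these rules would name are not reported here. Shares of cells with a UMI were compared after thinning to 1000 UMIs. Scripts were tested on simulated data. Tools were Python 3.11.15, numpy 2.4.6, scipy 1.17.1, pandas 2.3.3, matplotlib 3.10.9 and Biopython 1.88. Upstream sequences are from RefSeq and coordinates from GENCODE, both on GRCm38. No column of a sample outside the series was used.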

Additional observations from a re-analysis of the deposited data

How the results depend on the processing

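No paired analysis was possible because each group has 1 library. Values are in the order P10 control, P10 mutant and 3-month mutant where 3 are given. The order of the libraries by share and the signs of the xenobiotic and hormone receptor medians depended on the setting. The share of kept cells that were members was 7.85%, 2.70% and 14.8% at a threshold of 1% and 3.16%, 1.60% and 2.98% at 5%. It was 4.29% and 1.22% at P10 with at most 5% mitochondrial UMIs, and 16.3%, 6.99% and 18.9% with cells holding markers of other types left out. For the control and 3-month libraries it was 6.34% and 23.3% at 500 UMIs and 4.05% and 3.51% at 2000. Counting only members of 5000 UMIs or more, an alternative chosen after seeing the data, gave 3.02%, 1.95% and 1.75%, with the P10 mutant above the 3-month library. The lipocalin level was 10.98%, 13.9% and 15.3% as a mean over cells, 17.6%, 18.5% and 36.7% at a threshold of 5%, 14.7%, 16.5% and 31.9% at 5% mitochondrial UMIs, and 15.2%, 14.96% and 29.3% without the largest cell (chosen after seeing the data). At 2000 UMIs it was 15.6% and 31.7% for the control and 3-month libraries, and at 5000 UMIs (chosen after seeing the data) 15.6% and 32.9%.

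Free gland RNA was 379, 86.7 and 2001 CPM in endothelial cells, 492, 170 and 1900 in fibroblasts, 483, 129 and 2258 in leukocytes at a member threshold of 1%, 449 and 104 at P10 with 5% mitochondrial UMIs, and 60.9 and 3185 as a median over cells in the mutants. Without thinning, Lcn4 was found in 15.9%, 31.6% and 86.7% of members and Dmbt1 in 62.8%, 78.5% and 77.4%. At 2-fold in place of 4-fold, 171 genes were higher in members than in other cells of every library.

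The counts of genes past 2-fold moved under many alternatives. Between the P10 libraries, genes higher and lower in the mutant were 205 and 404 at 20 UMIs, 8 and 33 at 200, 394 and 557 from means over cells, 8 and 40 at 4-fold, and 39 and 31 without members holding markers of other types. Among members with at least 10% lipocalin RNA (chosen after seeing the data) 43 were higher. Between the mutants, genes higher and lower at 3 months were 545 and 4358 at 20 UMIs, 77 and 738 at 200, 62 and 1193 without members holding other markers, and 416 and 624 without secreted products (chosen after seeing the data). Higher counts were 474 from means over cells, 91 at a threshold of 5%, 146 with free RNA subtracted, and, chosen after seeing the data, 112 at 5000 UMIs and 56 at 10% lipocalin RNA. Lower counts were 1747 without lipocalin genes, 343 at 4-fold and 1807 at 5% mitochondrial UMIs.

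Of 208 list medians, 16 moved. Without secreted products the medians between mutants were -0.18 for all genes, -0.30 for the endoplasmic reticulum, -0.53 for secretory transcription factors, -0.58 for ion transport, -0.68 for epithelial genes, -0.70 for mucins, -0.86 for immediate early genes, -1.45 for the cell cycle and 2.48 for antigen presentation. Antigen presentation was 0.49 at a threshold of 5%, 0.61 at 5000 UMIs and 0.37 at 10% lipocalin RNA. Lipocalins outside the rule were 5.12 and ion transport -0.82 at 5% mitochondrial UMIs, the lipocalins 4.92 at 10% lipocalin RNA, and the antimicrobial median between the P10 libraries 0.73 there. Of 379 values of named genes, 275 stayed within a fixed fold limit of the main ratio and 104 moved past it. The causes were not tested. Depth limits the 3-month members most, since their median is 1894 UMIs.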

Other observations

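Wfdc18, the most abundant product of the gland cells outside the rule, was also abundant in cells with almost no lipocalin RNA. At least 2% of UMIs came from Wfdc18 in 257 kept control cells, 178 kept cells from the mutant at P10 and 321 at 3 months. Of these, 136, 122 and 74 were not members. In those non-members Wfdc18 was a median of 5.17%, 5.62% and 4.85% of UMIs, against member medians of 2.32%, 4.87% and 3.26%, while the 5 lipocalin genes were 0.0280%, 0.0111% and 0.326%. Their median depth was 19268.5, 15988.5 and 13020.5 UMIs, above that of the members of the P10 control and 3-month libraries. The lipocalin share of the 3-month non-members was about that of the leukocytes of the library (0.318%), and that of the P10 control non-members was below theirs (0.0519%). In each P10 library there were thus more Wfdc18-rich cells outside the rule than inside it (121 and 56 members). Which cells these are was not examined.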
